A study of Caenorhabditis elegans with 2 samples.

Results

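The 10 genes described here are vha-1, vha-2 and vha-8 to vha-15, which encode subunits of the vacuolar ATPase (V-ATPase) of Caenorhabditis elegans, out of 19973 protein-coding genes on the 6 nuclear chromosomes of the annotation. They were taken as a fixed list of names, and for each one the summits of UNC-62 chromatin immunoprecipitation peaks were sought around its start and in its body. The list was chosen by name with the summits and signals of these peaks already known, and it leaves out 11 other V-ATPase genes, so its counts are descriptions and carry no test. The material was whole mixed-stage embryos of strain OP600, of pooled sex, which carries the unc119(ed3) mutation and the transgene wgIs600, a fusion of unc-62 with TY1, EGFP and FLAG tags, together with unc119. There was 1 group of 2 biological replicates from separate biosamples, and no second condition. The tagged protein came from the transgene, and the endogenous unc-62 gene is not described by the labels. UNC-62 itself is a homeodomain transcription factor of the Meis/Prep family.

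The V-ATPase is a rotary proton pump that acidifies lysosomes, endosomes and other compartments, and in worms it is also known for its high abundance in the excretory canal cell. Its V1 sector lies in the cytosol and splits ATP on a head of alternating A and B subunits, while its V0 sector lies in the membrane and carries protons on a ring of c subunits. A central stalk with subunits D and F turns inside the head, and peripheral stalks built from E and G, together with C, H and the V0 subunit a, hold the head still. Of the 10 genes, vha-1 and vha-2 encode V0 subunit c, and the other 8 encode the V1 subunits E (vha-8), F (vha-9), G (vha-10), C (vha-11), B (vha-12), A (vha-13), D (vha-14) and H (vha-15).

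UNC-62 summits lay upstream of 6 of the 10 genes and inside none of them. The authors thresholded their peaks by irreproducible discovery rate, which left an IDR list of 2754. In that list the genes with a summit from 1000 bp upstream to 500 bp downstream of the annotated start were vha-1, vha-8, vha-12, vha-13, vha-14 and vha-15. The share of all protein-coding genes with such a summit was 6.18%, or 1234 genes. By sector, the 6 were 5 of the 8 V1 genes and 1 of the 2 V0 genes. No summit of the IDR list fell in the body of any of the 10 genes, against 3.42% of all protein-coding genes with one there. Worm transcripts are often trans-spliced, so an annotated start can lie downstream of the point where transcription begins, and distances below are from the annotated start.

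The sequences under 5 of the 6 summits are shown because they are the DNA at the centre of the peaks. Each is the 101 bases centred on the summit, read 5′ to 3′ on the strand of the V-ATPase gene from the WBcel235 (ce11) reference, with base 51 at the summit. Capitals mark matches to any of the 9 motifs searched. The summit of vha-13 is not shown, since it falls in an untranslated exon part of another gene.
vha-1, chrIII:9780738-9780838, plus strand: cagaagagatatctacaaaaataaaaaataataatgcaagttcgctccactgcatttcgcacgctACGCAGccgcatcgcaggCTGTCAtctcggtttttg
vha-8, chrIV:6790529-6790629, plus strand: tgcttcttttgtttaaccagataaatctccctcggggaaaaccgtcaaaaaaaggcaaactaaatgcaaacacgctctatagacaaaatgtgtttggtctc
vha-12, chrX:4190676-4190776, plus strand: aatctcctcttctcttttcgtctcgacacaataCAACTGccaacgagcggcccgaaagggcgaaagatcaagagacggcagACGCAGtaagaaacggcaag
vha-14, chrIII:9507887-9507987, plus strand: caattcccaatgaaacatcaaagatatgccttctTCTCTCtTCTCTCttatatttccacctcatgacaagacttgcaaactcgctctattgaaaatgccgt
vha-15, chrX:2237565-2237665, plus strand: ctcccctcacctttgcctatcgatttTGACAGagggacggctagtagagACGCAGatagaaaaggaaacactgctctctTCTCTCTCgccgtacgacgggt

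The strongest peak of the 10 genes lay beside vha-8 (WBGene00006917, chrIV:6791074-6792455), which encodes subunit E of the peripheral stalk. Its signal, the value the authors' peak caller gave each peak, was 201 in the IDR list, where it ranked 257, within the strongest 9.33%. The summit lay 495 bp upstream of vha-8, in intergenic sequence, and the peak was 96 bp wide (chrIV:6790527-6790622). In the replicate lists, which hold peaks and background, it had a signal of 117 and rank 315 of 21749 in replicate 1 and a signal of 85.1 and rank 178 of 30000 in replicate 2. Both replicates therefore placed it among their strongest peaks. The same summit lay 91 bp upstream of the divergent gene C17H12.2, which was the nearest protein-coding start, so the peak cannot be assigned to vha-8 by position alone. A non-coding RNA gene, C17H12.33, starts 464 bp before the summit on the strand of vha-8.

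The genes of the catalytic head both had a summit upstream, at very different strengths. For vha-12, which encodes subunit B (WBGene00006921, chrX:4191094-4193144), the signal was 160 and the rank 446, with the summit 368 bp upstream in intergenic sequence. The peak covered chrX:4190649-4190769, and no other protein-coding start was nearer. It ranked 460 in replicate 1 (signal 103) and 508 in replicate 2 (signal 58.1), so the replicates placed it alike. For vha-13, which encodes the catalytic subunit A (WBGene00013025, chrV:14351709-14354422), the signal was 63.9 and the rank 2522 of 2754, close to the lowest signal in the list, 59.9. Its summit lay 582 bp upstream and inside another gene, cept-2, in the part of its last exon that follows the coding sequence, 686 bp past the end of that coding sequence and 355 bp before the annotated end of cept-2. The gap between cept-2 and vha-13, which lie on the same strand, is 226 bp. In replicate 1 the vha-13 peak ranked 2151 (signal 46.5), and in replicate 2 it ranked 4392 (signal 19.1). A weaker summit 1132 bp upstream, also in cept-2, was in the pooled list with a signal of 39.9 (rank 4708 of 17083) and outside the IDR list. In replicate 2 the upstream summit was marginally the stronger, 1060 bp upstream at rank 4140 (signal 19.6).

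**Figure D1:**
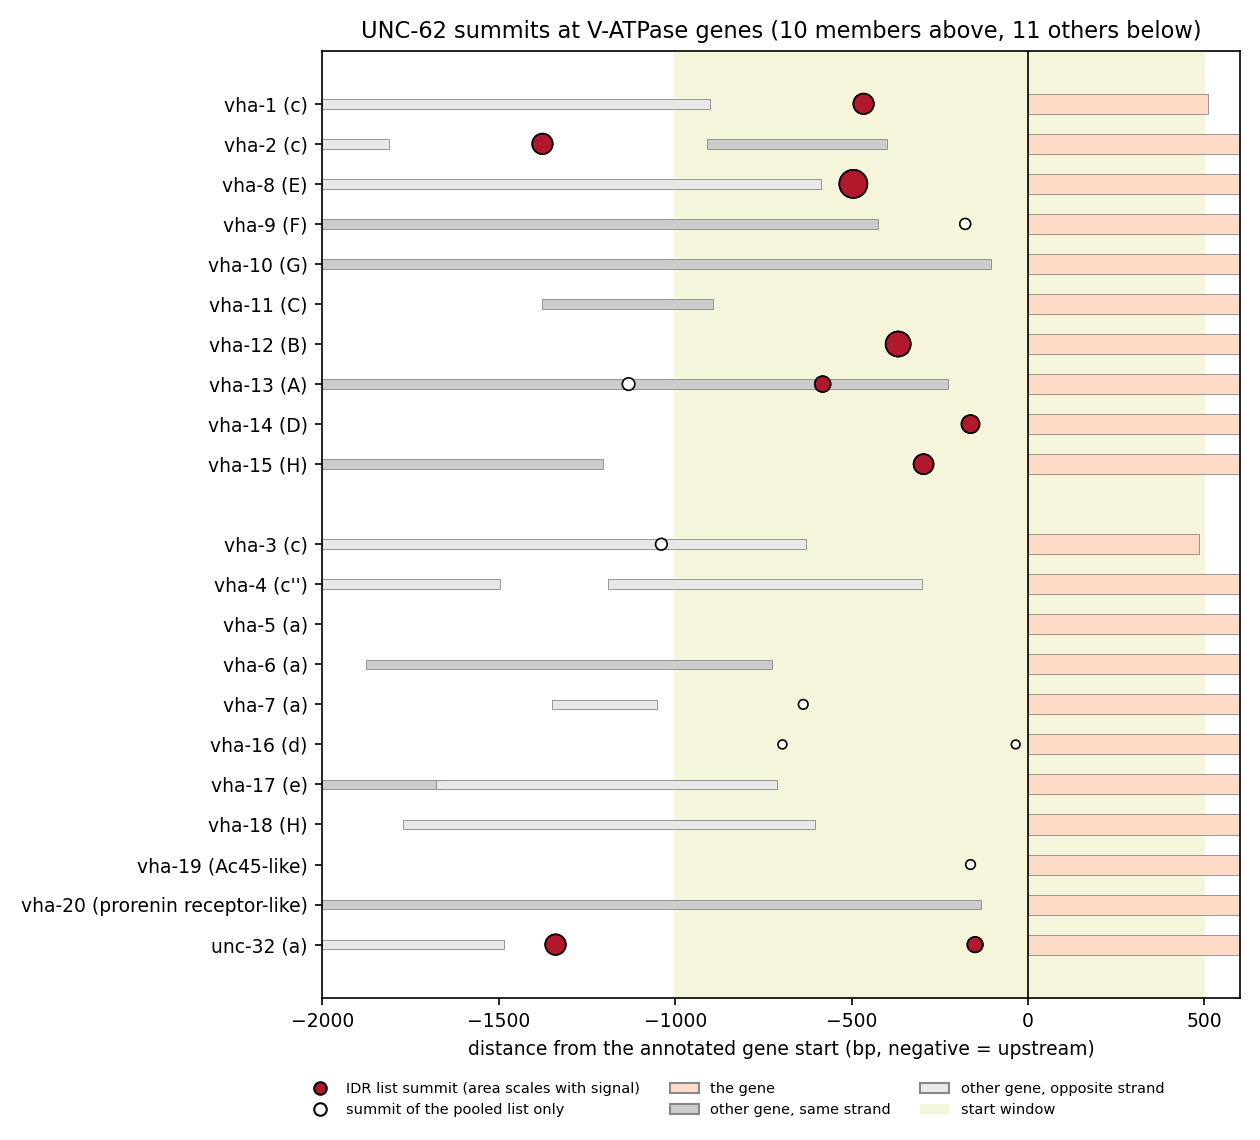
Map of UNC-62 summits from 2000 bp upstream to 600 bp downstream of the annotated starts of the 10 genes (upper rows) and of the 11 other V-ATPase genes (lower rows), with the subunit in brackets; filled circles are summits of the IDR list, open circles those of the pooled list alone, circle area scales with signal, bars are protein-coding genes and the shaded band is the start window. The filled circles of vha-1, vha-8, vha-12, vha-14 and vha-15 lie in gaps between genes, that of vha-13 lies within the upstream gene, and unc-32 is the only gene of the lower rows with a filled circle in the band.

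The rotor and the stalk gave 2 further peaks. For vha-14, which encodes subunit D of the central rotor (WBGene00010130, chrIII:9508100-9509757), the summit lay 163 bp upstream, the closest of the 6 to its gene. Its signal was 82.5 and its rank 1721. The replicates were far apart for this gene: the peak ranked 1093 in replicate 1 (signal 69.0) and 9459 in replicate 2 (signal 13.9). In replicate 2 the strongest summit near vha-14 was another one, in a non-coding exon part 1510 bp downstream of the start (rank 3782), which the pooled list held with a signal of 33.1. For vha-15, which encodes subunit H (WBGene00020507, chrX:2237911-2240255), the summit lay 296 bp upstream with a signal of 102 and rank 1190. It ranked 1408 in replicate 1 (signal 60.4) and 1168 in replicate 2 (signal 38.9), so this peak had a similar place in both lists.

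The proton-carrying ring was represented by vha-1 (WBGene00006910, chrIII:9781254-9781763) and vha-2 (WBGene00006911, chrIII:9782164-9783224), which lie in tandem on the plus strand, 400 bp apart. The summit at chrIII:9780600-9780975 had a signal of 106 (rank 1090) and lay 466 bp upstream of vha-1. It ranked 1431 in replicate 1 (signal 59.8) and 1005 in replicate 2 (signal 42.2). The summit was 1376 bp upstream of vha-2, outside its window, with the whole of vha-1 in between. With a window reaching 2000 bp upstream, vha-2 was added and 7 of the 10 genes had a summit, beside 8.89% of all protein-coding genes. The nearest start to this summit was that of the divergent gene sqv-3, 434 bp away, so it sits near the middle of the gap between sqv-3 and vha-1. In the start window of vha-2 itself, replicate 1 alone had a weak summit, at rank 17161 (signal 11.9). That weak summit lay 852 bp upstream of vha-2, in the coding sequence of vha-1.

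The other 3 genes had no IDR summit at their start and only weak peaks elsewhere. For vha-9, subunit F of the rotor (WBGene00006918), a summit 178 bp upstream stood in the pooled list with a signal of 30.5 (rank 6798). It was present in both replicate lists, 175 bp upstream at rank 6522 in replicate 1 and 160 bp upstream at rank 18487 in replicate 2. The nearest IDR summit was 3128 bp away. For vha-11, subunit C (WBGene00006920), the pooled list held no summit in the start window and 2 in introns, 4435 and 2543 bp downstream of the start, with signals of 30.1 and 26.1. In its start window replicate 2 alone had weak summits, 351 bp downstream at rank 25505 and 810 bp upstream at rank 27081. For vha-10, subunit G (WBGene00006919), the pooled list held none from 2000 bp upstream to the end of the gene, and replicate 2 alone had a weak one in the start window, 501 bp upstream, at rank 15792. The nearest IDR summits to these genes were 17747 bp (vha-11) and 10735 bp (vha-10) away. Counting every peak of the pooled list, background peaks included, 7 of the 10 genes had a summit in the start window, vha-9 being the addition, beside 27.9% of all protein-coding genes. Read counts per library are unknown here, so the lists do not show whether weaker binding exists at these genes.

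By rank, the replicates differed most for vha-14 and next most for vha-13, both at the weaker end of the 6 start peaks. Of the 6 start peaks, 6 were among the 2754 strongest of replicate 1 and 4 among the 2754 strongest of replicate 2, the exceptions being vha-13 and vha-14. Over the 2706 nuclear IDR peaks found in both lists, 88.5% were among the 2754 strongest of replicate 1 and 80.2% among those of replicate 2. With those strongest peaks alone, 6 of the 10 genes had a summit at the start in replicate 1, beside 6.21% of all protein-coding genes, and 4 of 10 in replicate 2, beside 5.93%. The summits of the 2 replicates lay 6 to 60 bp apart, farthest for vha-14 and closest for vha-8.

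**Figure D2:**
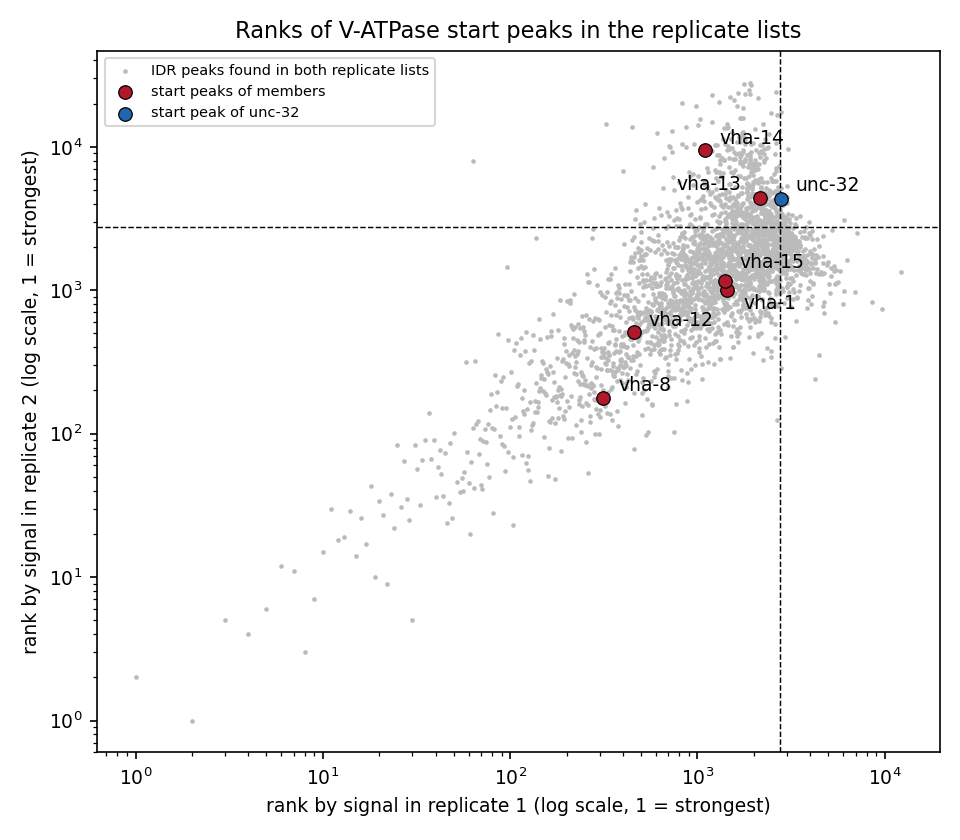
Rank by signal in replicate 1 (x axis, log scale) against rank in replicate 2 (y axis, log scale) for the 2706 nuclear IDR peaks found in both lists (grey), the start peaks of 6 V-ATPase members (red) and that of unc-32 (blue); dashed lines mark rank 2754. The points of vha-8, vha-12, vha-15 and vha-1 lie left of the vertical and below the horizontal line, while vha-14 and vha-13 lie above the line for replicate 2, at ranks 9459 and 4392.

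The 6 start peaks were ordinary in strength and lay somewhat far from the annotated start. Their median signal was 104, against 90.5 for the strongest start summit of each of the 1234 protein-coding genes with one. Their median distance was 417 bp upstream, against 269 bp, and 5 of the 6 lay at least 250 bp upstream, as did 53.7% of the 1234. Of the 6, 5 were intergenic, and for 4 the V-ATPase gene was the nearest protein-coding start. The matching shares over the 1234 genes are not given here, so neither count sets the 6 apart. The summits of vha-1 and vha-8 also fell in the start window of another protein-coding gene, 2 of 6, beside 39.7% of the 1234 genes whose summit was shared in this way. The −log10 q deposited for each peak was at the highest value of the list, 3.37, for vha-1, vha-8 and vha-12, and 2.75, 3.06 and 2.90 for vha-13, vha-14 and vha-15. That highest value is shared by 1173 of the 2754 IDR peaks.

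**Figure D3:**
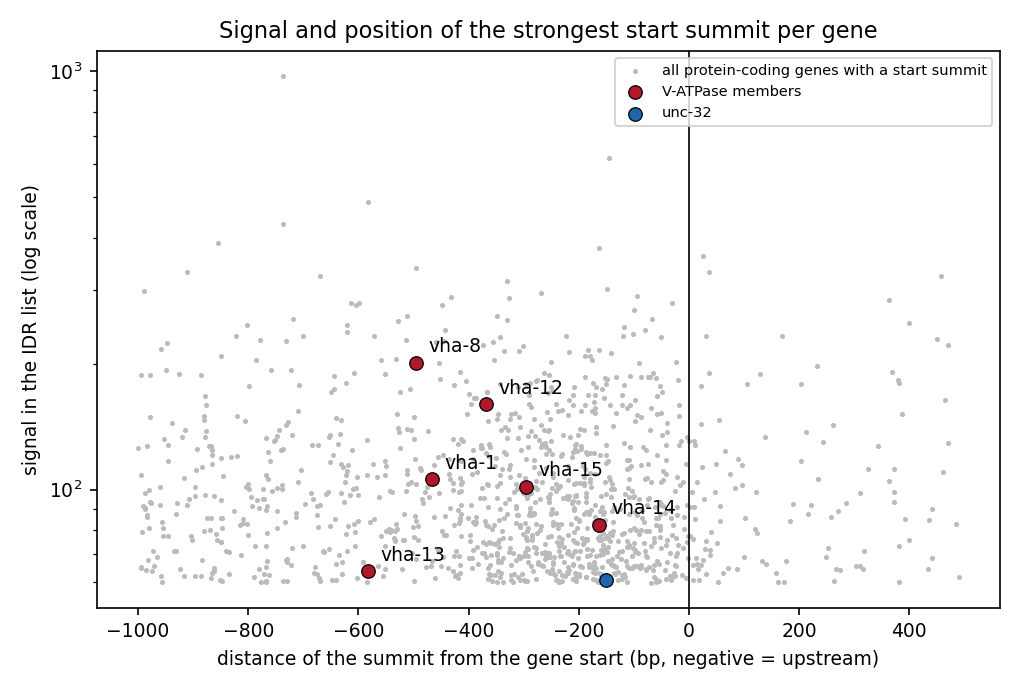
Signal in the IDR list (y axis, log scale) against distance from the annotated gene start (x axis, bp) for the strongest start summit of each of 1234 protein-coding genes (grey), with 6 V-ATPase members in red and unc-32 in blue. The members lie 163 to 582 bp upstream with signals of 63.9 to 201, inside the cloud of other genes.

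A close upstream gene on the same strand, a position typical of downstream genes in worm operons, was found for 4 of the 10 genes, namely vha-2, vha-9, vha-10 and vha-13, each with such a gene ending within 500 bp of its start. Of these, 1 had an IDR summit in the start window (vha-13, within its upstream neighbour), and of the remaining genes 5 of 6 had one. Over the annotation, 4102 genes were counted in that position, including any that overlap a same-strand upstream neighbour. Of them, 3.39% had a start summit, against 6.90% of the 15871 others. The remaining gene without a summit, vha-11, lies 892 bp downstream of vha-3 on the same strand. The part of gene order in these counts was not tested.

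The 50 bp to each side of the 6 summits were searched for short DNA motifs, on either strand. The Meis core site TGACAG was present at vha-1 and vha-15, 2 of 6, beside 12.8% of all 2732 nuclear IDR summits and 3.40% of windows 500 bp to their sides. Among the 1008 summits in protein-coding start windows, the share with TGACAG was 10.5%. GAGAGA was present at vha-13, vha-14 and vha-15, 3 of 6, beside 31.9% of summits, 29.8% of those 1008 and 5.82% of the side windows. At vha-14 it occurred as a pair of TCTCTC runs on the gene's strand, just before the summit. ACGCAG was present at vha-1, vha-12 and vha-15, 3 of 6, beside 14.2% of summits, 18.2% of the 1008 summits in protein-coding start windows and 1.72% of side windows. All 3 of these read in the direction of the gene.

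The E box CANNTG, where N is any base, was present at vha-12 alone, 1 of 6, beside 49.4% of summits and 31.1% of side windows. CACGTG, a special case of CANNTG and the core of the site bound by HLH-30, the worm TFEB factor of lysosomal genes, was in none of the 6 windows, beside 2.93% of summits. Nor were the PBC-Hox sites TGATTGAT, TGATTTAT and TGATTAAT (3.40%, 2.67% and 0.805% of summits) or the GATA-type site TGATAA (6.44%). Among the 1008 summits in protein-coding start windows, CANNTG was at 47.2% and CACGTG at 3.37%. The PBC-Hox sites were at 1.49%, 2.08% and 0.496% of those summits, in the same order, and TGATAA at 4.66%. In the side windows CACGTG was at 1.68%, and the PBC-Hox sites were at 0.549%, 0.824% and 0.512%. TGATAA was at 9.61% of side windows, a larger share than at the summits. The vha-8 window, under the strongest of the 6 peaks, held none of the 9 motifs. A match describes letters in a window and not a bound site. The median GC content of the 6 windows was 47.5%, against 46.5% for the 1008 summits in protein-coding start windows. It was 45.5% for all nuclear IDR summits and 34.6% for the side windows.

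Of the 11 other V-ATPase genes, 1 had an IDR summit in the start window, so that 7 of the 21 V-ATPase genes (33.3%) had one, beside 6.18% of all protein-coding genes. It was unc-32, the gene of a subunit a isoform known for its role in neurons (WBGene00006768, chrIII:8905615-8911756). Its summit 150 bp upstream had a signal of 60.7 and rank 2698, near the end of the list, and ranked 2801 in replicate 1 and 4290 in replicate 2. A stronger summit, 1339 bp upstream (signal 107, rank 1066), lay nearer to the divergent gene lin-9, 145 bp upstream of its start. The other 3 genes of subunit a had none: vha-5 had no peak in any list from 2000 bp upstream to its end, vha-6 had 1 weak peak 1957 bp upstream in replicate 1, and vha-7 had a pooled summit 637 bp upstream with a signal of 23.5. The nearest IDR summit to vha-7 lay 2924 bp upstream, outside the start window, with a signal of 332 (rank 50).

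The remaining 7 genes had no IDR summit either. In the start window of vha-16, subunit d, the pooled list held summits 696 and 35 bp upstream, with signals of 20.3 and 19.3, and in replicate 2 the matching summits ranked 3521 and 4083. Replicate 1 had no summit in that window. In that of vha-19, an Ac45-like accessory subunit, it held a summit 163 bp upstream with a signal of 23.5. For vha-3 (subunit c), vha-4 (subunit c″), vha-17 (subunit e) and vha-20 (a relative of the prorenin receptor) the pooled list held no summit in the start window. Both replicate lists held weak summits in that of vha-4, the strongest at rank 15453 in replicate 1 and 15115 in replicate 2. In those of vha-3, vha-17 and vha-20 replicate 2 alone had a weak summit, at ranks 24733, 14954 and 17306. A pooled summit with a signal of 34.8 lay 1039 bp upstream of vha-3, outside its window. For vha-18, a second gene for subunit H beside vha-15, none of the 4 lists held a peak from 2000 bp upstream to its end.

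Other gene groups are given for scale. A start summit was found at 45 of 78 ribosomal protein genes (57.7%), led by rpl-3, rpl-12 and rpl-15 (signals 295, 231 and 225). The mitochondrial F-type ATP synthase, a rotary enzyme related to the V-ATPase, had one at 8 of 16 genes (50%), led by atp-3 (135), asb-2 (113) and atp-1 (104). It was found at 7 of 33 proteasome genes (21.2%), led by rpn-5 (182), rpn-3 (121) and rpn-9 (104). Among 22 genes of the lysosome and of TORC1 signalling, which acts at the lysosomal surface, only the cathepsin D-like protease gene asp-4 had one (83.2, 298 bp upstream), or 4.55%. The 6 of 10 V-ATPase members, chosen with the peaks known, stand beside these as a description, and no difference between the lists was tested.

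**Figure D4:**
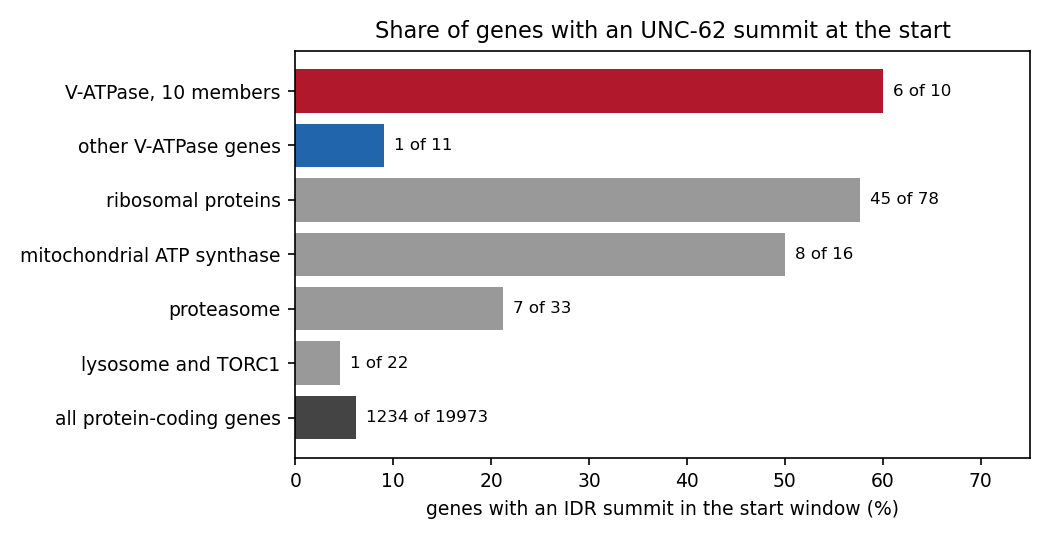
Percent of genes with an IDR summit from 1000 bp upstream to 500 bp downstream of the start (x axis) in the 10 V-ATPase members, the 11 other V-ATPase genes, 4 comparison lists and all protein-coding genes, with counts beside the bars. The share was 60% in the members, 9.09% in the other V-ATPase genes and 6.18% over all genes.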

How the data were processed

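Per the deposited descriptions, the authors called peaks for each replicate and for both replicates pooled, each against a control, and derived the IDR list from these. No source used here names the aligner, the peak caller or the threshold. In these narrowPeak lists on ce11 the authors deposited a signal and a −log10 q for each peak. Signals were used to rank and describe peaks within lists, since their size is not comparable between lists. Summits (start plus offset, 1-based) were placed on WBcel235 with Ensembl release 115, the same assembly, whose chromosome lengths hold every peak. The ce10 lists were not used. The gene start was the outermost annotated one. An IDR peak was matched to the overlapping replicate peak (at least 1 bp) with the nearest summit. Depth is unknown. No test was run, since the members and lists were chosen with earlier results of these data known. Genes named are all V-ATPase genes, neighbours near a member's or unc-32's summit or start and up to 3 genes per comparison list with the strongest start peaks. Assignment to windows was tested on simulated data. Python 3.11.15 and pandas 2.3.3 were used.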

Additional observations from a re-analysis of the deposited data

How the results depend on the processing

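The count of V-ATPase members with a summit at the start was 6, 5 with a window of 500 bp upstream to 200 bp downstream, 7 with 2000 bp upstream, 6 with any transcript start, 4 with the 1377 strongest IDR peaks and 7 with all pooled peaks; it was 4 without replicate 1 and 6 without replicate 2. The count of other V-ATPase genes was 1, 0 with the stronger peaks, 4 with all pooled peaks and 0 with either replicate left out. Of all protein-coding genes, 4.43% had a summit with the window of 500 bp upstream, 8.89% with 2000 bp upstream and 6.86% with any transcript start. The share was 2.86% (572 genes) with the stronger peaks and 27.9% (5570 genes) with all pooled peaks. Without replicate 1 it was 5.93%, and without replicate 2 it was 6.21%. Members with a summit in the body were 0 in the IDR list, beside 3.42% of all genes, and 2 (vha-11 and vha-14) with all pooled peaks. The share of all genes with a pooled summit in the body is not given here. Within 25 bp of the summit TGACAG was left at 1 member and GAGAGA at 1, and within 100 bp GAGAGA was at 5 and the E box at 3. Shares of all summits at these widths are not given here, so these motif counts stand without a background. The cause of the changes in the counts was not tested, beyond fewer or more peaks and bases entering by construction. No paired analysis was possible because there is 1 group.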

Other observations

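Words of 8 bases shared by the windows of at least 2 of the 6 V-ATPase summits were listed after the sequences had been seen, and are given as values only. There were 11 such words, 9 in a larger share of summits than of windows 500 bp to their sides and 2 in a smaller one. The windows that gave the words are themselves among the summits counted. Several words overlap in the same run of C and T, such as CTCTTCTC and CTTCTCTC at vha-14. The tally is therefore not a count of separate elements. AGACGCAG, which contains ACGCAG, was shared by vha-12 and vha-15. It was present at 9.33% of all nuclear IDR summits and 11.1% of the summits in protein-coding start windows, beside 0.384% of side windows. CGCTCTAT was shared by vha-8 and vha-14, at 0.732% of summits and 1.39% of the summits in protein-coding start windows, beside 0.183% of side windows. CTCTTCTC was shared by vha-12, vha-14 and vha-15, at 3.15% of summits and 2.68% of the summits in protein-coding start windows, beside 0.860% of side windows. The 2 words in a smaller share of summits were AACCGAGA, shared by vha-1 and vha-13 (0.256% of summits, 0.421% of side windows), and CTATTGAA, shared by vha-13 and vha-14 (0.329% and 0.604%). Of the summits in protein-coding start windows, 0.298% held AACCGAGA and 0.397% held CTATTGAA.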
